A study of Mus musculus with 18 samples.

Results

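Cell cycle and proliferation genes were followed in the livers of 18 male C57BL/6J mice. The 45 genes were taken by symbol from the 55487 genes of the count table, and their list was chosen with earlier results of these data known. The list covers G1 cyclins and their kinases (8 genes), CDK inhibitors (3), the transcription factors E2f1 and Foxm1, origin licensing (8), DNA synthesis (4), mitotic cyclins and kinases (7), the spindle checkpoint and kinetochore (6), and the spindle and chromosomes (7). All mice were bought at 7 weeks of age and received adeno-associated virus 8 with the hepatocyte-specific TBG promoter 1 week before the diets began, so that the control livers carry a vector too. CON-GFP mice received the vector for GFP and a purified control diet, FPC-GFP mice the same vector and a diet high in fructose, palmitate and cholesterol with fructose and glucose in the water, and FPC-LIPA mice the FPC diet and a vector for human LIPA, the gene of lysosomal acid lipase (LAL). Livers were taken after 16 weeks of diet, with 6 mice a group and 1 RNA library a mouse. No LIPA group on the control diet was analysed here, so an effect of LIPA could be looked at on the FPC diet only. Whole liver RNA was sequenced, in which fewer cells of a type and less RNA per cell cannot be told apart.

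Most hepatocytes of an adult liver rest outside the cell cycle and can enter it again after injury or loss of tissue, often ending as polyploid cells. Entry begins with D cyclins, which bind CDK4 and CDK6 and phosphorylate RB, so that E2F factors turn on the genes of origin licensing and DNA synthesis. Later, the B-MYB and FOXM1 factors turn on the genes of mitosis through a promoter element called CHR, and NF-Y binds CCAAT boxes in many of the same promoters. Kupffer cells and other macrophages can also divide in the liver, and RNA of whole tissue does not show which cells a transcript came from.

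Total counts were between 16632146 and 37739301 per library. The 7 hepatocyte markers summed to between 45643 and 97384 CPM (read counts scaled to a common library size, with TMM factors) in every library, and none of them was near 0. Mouse Lipa lay between 208 and 406 CPM and cannot check the human transgene, which is not a row of the mouse table. In FPC-LIPA 36, 37 and 39, ribosomal protein genes took 6.48%, 8.09% and 8.15% of the counts, against 2.16% to 2.95% in FPC-LIPA 31, 33 and 34 and at most 2.54% in the other groups. FPC-GFP 20, CON-GFP 1, CON-GFP 2 and FPC-LIPA 37 had sample sheet numbers outside the run from 55 to 68 that holds all other libraries.

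A RefSeq promoter window (GRCm38.p6, from 250 bases before to 50 after the transcription start) was found for 36 of the 45 genes. Motifs of 3 kinds were searched on both strands, namely the CHR element (TTTGAA), the CCAAT box, and an E2F-type element (which reads TTCCCGC in 1 form, TTGGCGC in another, and TTGGCGG or else TTCGCGC in the others). These motifs can overlap, since a CCAAT box read from the other strand can run into an E2F-type element, and 9 of the 106 matches in the windows of the members did. The CHR element was found in 13 of the 36 genes and in 20.2% of all 27025 genes with a window. Of those 13 genes, 12 belong to the 16 mitotic genes with a window, and the other is Mcm2. All 13 also hold a CCAAT box, a pair found in 7.97% of all genes. The E2F-type element was found in 13 genes too, among them 7 of the 11 licensing and DNA synthesis genes with a window and 4 of the 16 mitotic genes, against 11.6% of all genes. A CCAAT box was in 27 of the 36 genes and in 41.1% of all genes. A match is a description of the letters in the window, and nothing about binding was measured.

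The 180 bases before the start are given for the 6 DE genes with a window and the largest diet log2 fold change, Cdc20, Ccnb1, Prc1, Mcm5, Mki67 and Mcm2, and for the 3 genes that were DE with LAL overexpression, Cdkn2c, Pcna and Birc5. Capitals mark matches to the CHR element, the CCAAT box and the E2F-type element on either strand.
Cdc20 (chr4:118437344-118437523, minus strand): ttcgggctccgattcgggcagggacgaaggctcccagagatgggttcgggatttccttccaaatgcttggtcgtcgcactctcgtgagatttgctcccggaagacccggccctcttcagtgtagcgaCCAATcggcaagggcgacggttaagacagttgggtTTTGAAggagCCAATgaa
Ccnb1 (chr13:100786487-100786666, minus strand): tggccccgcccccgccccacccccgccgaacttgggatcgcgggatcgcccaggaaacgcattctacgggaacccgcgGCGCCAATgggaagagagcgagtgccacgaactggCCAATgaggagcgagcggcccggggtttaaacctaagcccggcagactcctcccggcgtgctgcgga
Prc1 (chr7:80294271-80294450, plus strand): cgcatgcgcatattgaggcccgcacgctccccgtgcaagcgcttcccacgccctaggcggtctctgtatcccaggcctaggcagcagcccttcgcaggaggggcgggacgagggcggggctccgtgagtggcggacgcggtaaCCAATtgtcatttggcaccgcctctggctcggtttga
Mcm5 (chr8:75109329-75109508, plus strand): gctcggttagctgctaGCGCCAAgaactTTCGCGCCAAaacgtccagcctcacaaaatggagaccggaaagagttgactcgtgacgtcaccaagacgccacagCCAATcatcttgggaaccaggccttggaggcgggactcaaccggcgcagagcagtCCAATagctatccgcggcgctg
Mki67 (chr7:135716380-135716559, minus strand): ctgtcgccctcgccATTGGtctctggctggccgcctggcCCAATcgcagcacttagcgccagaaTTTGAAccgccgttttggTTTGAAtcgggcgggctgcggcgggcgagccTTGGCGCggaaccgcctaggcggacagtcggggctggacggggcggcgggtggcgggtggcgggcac
Mcm2 (chr6:88898781-88898960, minus strand): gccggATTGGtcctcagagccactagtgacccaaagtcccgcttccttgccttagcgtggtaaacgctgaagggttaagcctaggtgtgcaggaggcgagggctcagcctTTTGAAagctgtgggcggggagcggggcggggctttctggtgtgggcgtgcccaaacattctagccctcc
Cdkn2c (chr4:109666757-109666936, minus strand): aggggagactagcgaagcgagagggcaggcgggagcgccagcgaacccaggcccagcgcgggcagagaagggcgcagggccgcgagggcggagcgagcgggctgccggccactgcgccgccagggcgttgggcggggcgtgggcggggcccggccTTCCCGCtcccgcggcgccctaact
Pcna (chr2:132253181-132253360, minus strand): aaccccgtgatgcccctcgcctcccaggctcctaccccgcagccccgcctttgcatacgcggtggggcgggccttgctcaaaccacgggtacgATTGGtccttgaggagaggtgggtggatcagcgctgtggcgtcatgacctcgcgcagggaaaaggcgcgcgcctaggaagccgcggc
Birc5 (chr11:117849057-117849236, plus strand): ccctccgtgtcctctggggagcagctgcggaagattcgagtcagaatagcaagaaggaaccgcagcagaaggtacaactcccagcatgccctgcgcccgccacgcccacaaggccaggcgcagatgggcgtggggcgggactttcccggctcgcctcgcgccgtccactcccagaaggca

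In these stretches Cdc20 has a CHR element 18 bases before the start between a pair of CCAAT boxes, and Mki67 has a pair of CHR elements with an E2F-type element closer to the start. Mcm5 shows 3 E2F-type elements, a pair of which overlap, and a pair of CCAAT boxes, Mcm2 a CHR element and a distant CCAAT box, and Ccnb1 a pair of CCAAT boxes, 1 of which overlaps an E2F-type element. Prc1 has 1 CCAAT box in the printed bases, and its CHR element runs across this start and lies 30 bases before its other start. Cdkn2c has 1 E2F-type element and Pcna 1 CCAAT box, while none of these letters was found in the printed bases of Birc5.

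**Figure D1:**
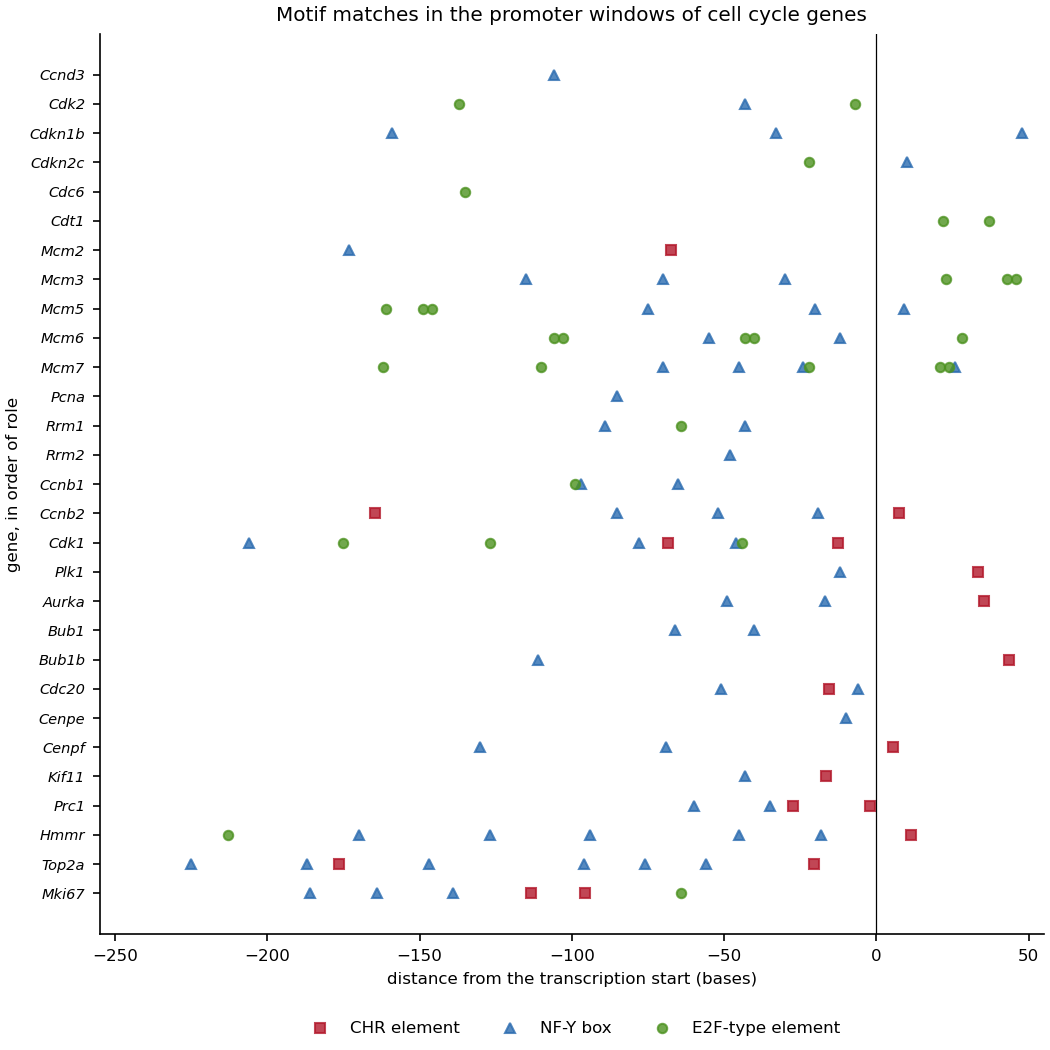
Position of each CHR element (red squares), CCAAT box (NF-Y box, blue triangles) and E2F-type element (green circles) in the promoter windows, by distance from the transcription start in bases, for the 29 members with at least 1 match, ordered by role. CHR elements appear in the rows of mitotic genes and Mcm2, most of them in the part of the window closer to the start.

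The first comparison asked what the FPC diet changed in livers with the GFP vector. Of the 45 genes, 18 were differentially expressed (DE, at least 2-fold and an adjusted p under 0.05) and higher in FPC-GFP than in CON-GFP, which is 40% of the members against 4.76% of all 14307 genes tested. At any fold, 24 rose at an adjusted p under 0.05, where 12.9% of all tested genes did, and 0 fell, where 10.9% did. No member was lower at an unadjusted p under 0.05 in edgeR's quasi-likelihood test either, and the DESeq2 Wald test also called 0 lower. The median log2 fold change was 1.01 over the 43 members tested and 0.01 over all tested genes, and 39 of the 43 were above 0. Bub1 and Cdc6 had too few counts to be tested. The groups did not overlap, with every FPC-GFP liver above every CON-GFP liver, for 6 members (Ccnd1, Foxm1, Mcm2, Mcm3, Mcm6 and Mki67), or 13.3%, against 5.61% of all tested genes.

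**Figure D2:**
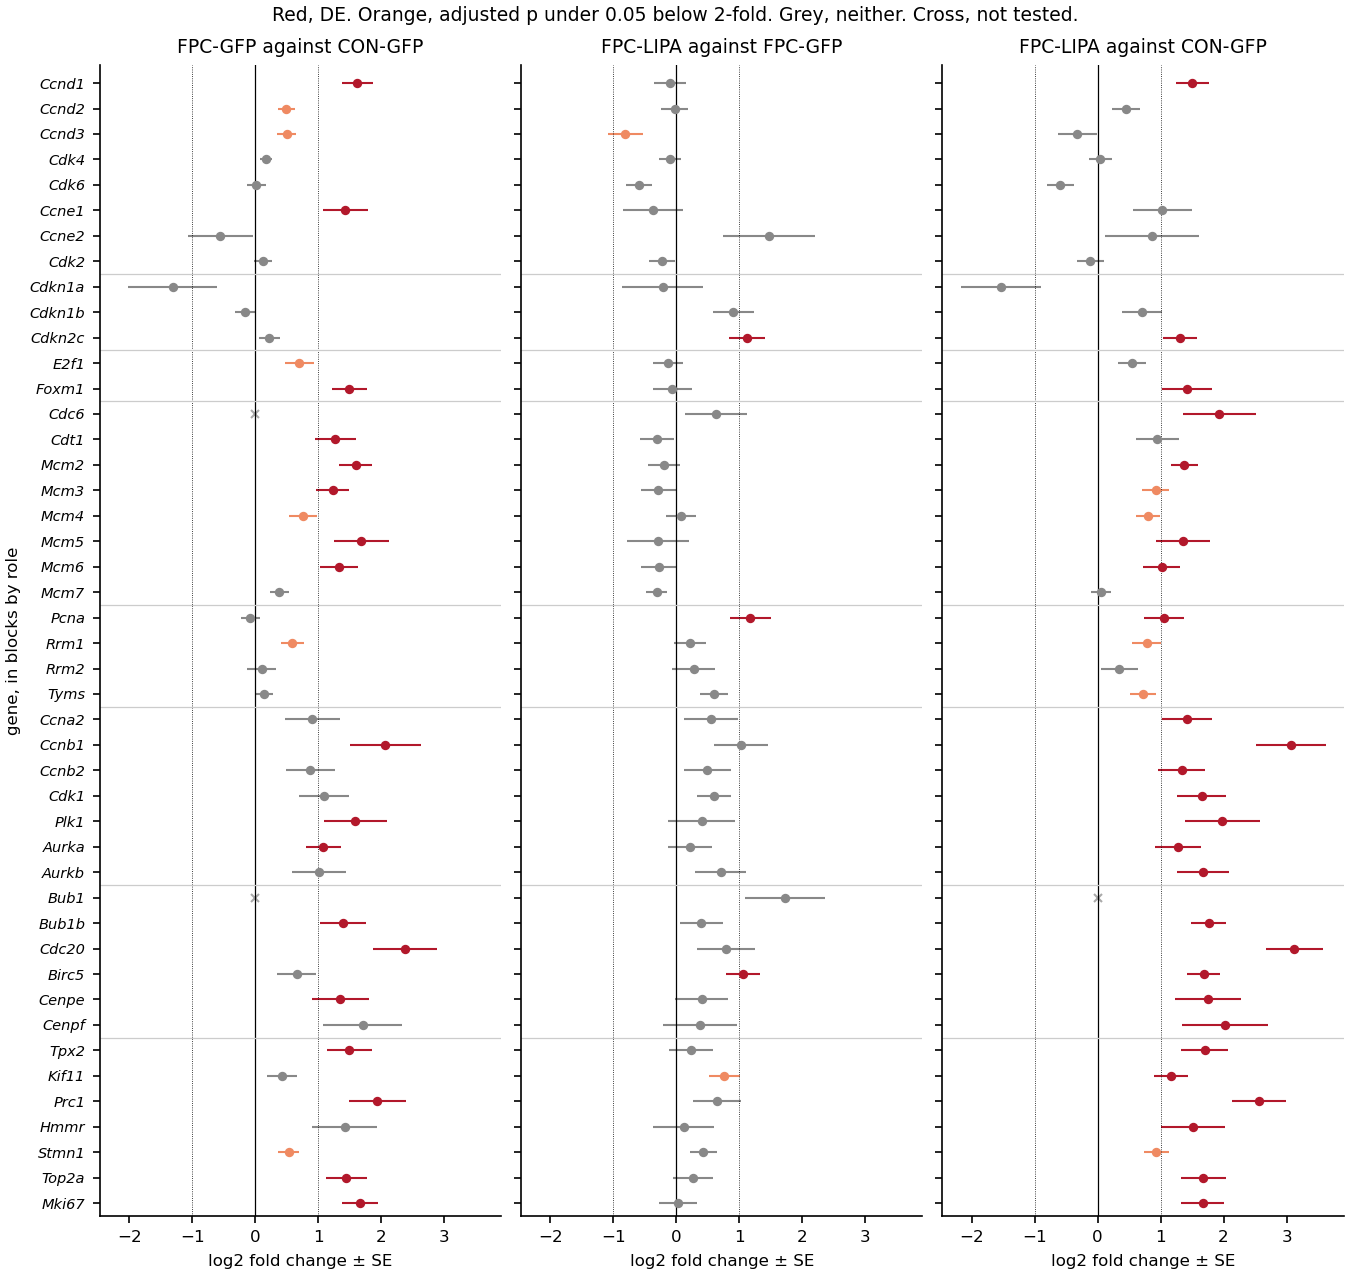
Log2 fold change with its standard error (SE) for the 45 members in blocks by role, in the 3 comparisons. In FPC-GFP against CON-GFP 18 genes are DE and higher, in FPC-LIPA against FPC-GFP 3 are, and in FPC-LIPA against CON-GFP 26 are, with no DE gene on the lower side.

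Among the G1 genes, Ccnd1 (ENSMUSG00000070348, chr7:144929931-144939925 of GRCm38, minus strand), the cyclin that starts hepatocyte entry into the cycle, rose the most with the diet. Its level was 10.2 to 23.4 CPM in CON-GFP (median 16.1) and 29.8 to 64.7 CPM in FPC-GFP (median 57.9). The groups did not overlap, with FPC-GFP 12 and 20 the lowest of the FPC-GFP livers. The log2 fold change was 1.63 (SE 0.25, adjusted p = 0.000659). Ccne1, cyclin E1, which drives the step into S phase with CDK2, was at 0.721 to 2.15 CPM in CON-GFP (median 1.05) and at 1.54 to 5.60 CPM in FPC-GFP (median 2.73). The ranges of Ccne1 overlapped, with 4 FPC-GFP livers above every control, and the log2 fold change was 1.43 (SE 0.36, adjusted p = 0.0114). Ccnd2 and Ccnd3, the other D cyclins, rose by less than 2-fold, with log2 fold changes of 0.50 each (adjusted p = 0.0173 and 0.0274). The call of Ccnd3 was lost in 8 of 22 alternative settings and that of Ccnd2 in 2 of 22. The kinases had log2 fold changes of 0.17 for Cdk4, 0.02 for Cdk6 and 0.13 for Cdk2, none of which passed the test (adjusted p from 0.209 to 0.932). Ccne2 had a log2 change of -0.55 (SE 0.52, adjusted p = 0.456), and CON-GFP 2 alone stood at 5.45 CPM in a group whose other livers were at or below 1.51 CPM.

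Per exon length, the mix of D cyclins differed between the groups. Ccnd1 made up 44.3% ± 8.22 (SD, n = 6) of the summed RPKM (CPM per kilobase of exon) of Ccnd1, Ccnd2 and Ccnd3 in CON-GFP and 62.7% ± 7.98 in FPC-GFP, and Ccnd3 48.3% ± 7.86 and 32.5% ± 6.78. In FPC-LIPA the shares were 72.6% ± 8.54 for Ccnd1 and 21.7% ± 8.39 for Ccnd3. Ccnd2 stayed at 4.86% to 7.45% on average. The ranges of the Ccnd1 share overlapped at their edges between CON-GFP (30.3% to 51.8%) and FPC-GFP (50.1% to 71.6%), and these shares are descriptions with no test. The shares rest on union exon lengths of 4709 bases for Ccnd1 and 8775 for Ccnd3, and other lengths would change them. Ccnd1 and Ccnd3 also share exonic bases with genes on the other strand, as described below.

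The CDK inhibitors showed no change with the diet that passed the test. Cdkn1a (p21), a target of p53 that halts the cycle, varied widely between mice. Its level was 26.4 to 312 CPM in CON-GFP (median 60.2) and 4.40 to 118 CPM in FPC-GFP (median 24.5), with CON-GFP 1 at 312 CPM and the next control at 95.7 CPM. The ranges overlapped widely, and the log2 fold change was -1.31 (SE 0.70, adjusted p = 0.181). Without FPC-GFP 11, the highest FPC-GFP liver for Cdkn1a, the log2 fold change became -2.04 (adjusted p = 0.0443), so that passing depends on 1 liver. Cdkn1b (p27) was at -0.16 (adjusted p = 0.481) and Cdkn2c (p18), an inhibitor of CDK4 and CDK6, at 0.22 (adjusted p = 0.336).

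Both transcription factors rose. Foxm1, which drives the genes of mitosis, was low, at 0.202 to 0.652 CPM in CON-GFP (median 0.539) and 1.00 to 1.54 CPM in FPC-GFP (median 1.33), or 4 to 17 and 20 to 50 counts a library. Its groups did not overlap, and the FPC-GFP livers lay close together. Foxm1 rose by 1.50 on the log2 scale (SE 0.28, adjusted p = 0.00235). E2f1, which drives the genes of S phase, was at 3.18 to 6.33 CPM in CON-GFP (median 3.62) and 3.55 to 10.8 CPM in FPC-GFP (median 6.43). It overlapped, with 3 FPC-GFP livers above every control, and rose by 0.70 on the log2 scale (SE 0.23, adjusted p = 0.0389), a call that was lost in 12 of 22 alternative settings.

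Of the origin licensing genes 5 of 8 were DE with the diet and 6 rose at any fold. Mcm2 to Mcm7 encode the MCM2-7 helicase, which the products of Cdc6 and Cdt1 help to load on origins of replication before S phase. Mcm2 (ENSMUSG00000002870, chr6:88883474-88898780, minus strand) was at 1.68 to 3.81 CPM in CON-GFP (median 2.89) and 4.60 to 13.6 CPM in FPC-GFP (median 8.78). No liver overlapped, and the log2 fold change was 1.60 (SE 0.27, adjusted p = 0.00118). Mcm6 was at 2.34 to 6.87 CPM in CON-GFP (median 3.94) and 6.97 to 20.6 CPM in FPC-GFP (median 8.68). The gap between the groups was narrow for Mcm6, and the log2 fold change was 1.33 (SE 0.30, adjusted p = 0.0065). Mcm3 went from 2.69 to 4.37 CPM (median 3.53) to 4.39 to 15.1 CPM (median 6.92), again with no overlap and a narrow gap, at a log2 change of 1.23 (SE 0.26, adjusted p = 0.00437). Mcm5 was at 1.15 to 3.49 CPM in CON-GFP (median 1.51) and 2.09 to 14.2 CPM in FPC-GFP (median 4.17). Its ranges overlapped, with CON-GFP 3 apart from the other controls, and the log2 fold change was 1.68 (SE 0.44, adjusted p = 0.013). Cdt1, a licensing factor degraded in S phase, was at 0.652 to 3.06 CPM in CON-GFP (median 1.42) and 2.55 to 6.22 CPM in FPC-GFP (median 3.66), with 4 FPC-GFP livers above every control and a log2 change of 1.27 (SE 0.32, adjusted p = 0.0116).

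Mcm4 rose by 0.76 on the log2 scale (SE 0.22, adjusted p = 0.0233), while Mcm7 was at 0.39 (adjusted p = 0.068). Cdc6, another loader of the helicase, had 0 to 12 counts in the CON-GFP libraries and 3 to 39 in the FPC-GFP libraries and was not tested. Summed over the 8 genes, origin licensing RNA was at 6.72 to 7.38 RPKM in CON-GFP (median 6.80) and 8.96 to 23.3 RPKM in FPC-GFP (median 11.8). The CON-GFP livers lay within a narrow band, and every FPC-GFP liver was above it. FPC-GFP 13 and 16 were the highest, with 23.3 and 16.6 RPKM.

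Some members share exonic bases with a gene on the other strand, and the labels name both a kit without strand and a stranded kit, without saying which library was made with which. Reads of such a pair cannot be told apart without strand. The partners and their highest counts in a library were Elovl1 for Cdc20 (1922), LTO1 for Ccnd1 (833), Bysl for Ccnd3 (1016), Cops6 for Mcm7 (5614), Tspan31 for Cdk4 (10483), Ints8 for Ccne2 (624), Exosc9 for Ccna2 (446) and Rccd1 for Prc1 (212). The values of these 8 members are uncertain to that extent.

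Of the 4 genes of DNA synthesis 1 rose with the diet and none was DE. Rrm1, the large subunit of ribonucleotide reductase, rose by 0.59 on the log2 scale (SE 0.18, adjusted p = 0.0286), a call lost in 7 of 22 alternative settings. Pcna, the sliding clamp of DNA polymerases, was at 23.0 to 34.2 CPM in CON-GFP (median 27.1) and 18.6 to 34.2 CPM in FPC-GFP (median 24.6). The ranges of Pcna were nearly the same, and its log2 fold change was -0.08 (SE 0.15, adjusted p = 0.727). Rrm2, the small subunit, and Tyms, thymidylate synthase, were at 0.10 and 0.14 (adjusted p = 0.778 and 0.448). The summed RPKM of these 4 genes was 14.2 to 18.7 in CON-GFP and 13.5 to 20.4 in FPC-GFP.

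Of the mitotic cyclins and kinases, 3 of 7 were DE with the diet, all at low counts. Ccnb1 (ENSMUSG00000041431, chr13:100778650-100786570, minus strand), cyclin B1, the partner of CDK1 at entry into mitosis, was at 0.0288 to 0.530 CPM in CON-GFP (median 0.199) and 0.200 to 1.93 CPM in FPC-GFP (median 0.875). That is 1 to 16 and 4 to 63 counts a library, and 5 FPC-GFP livers were above every control while FPC-GFP 20 was not. Ccnb1 rose by 2.07 on the log2 scale (SE 0.56, adjusted p = 0.0164). Plk1, a kinase of mitotic entry and spindle poles, was at 0.0649 to 0.575 CPM in CON-GFP (median 0.283) and 0.200 to 1.81 CPM in FPC-GFP (median 0.764). FPC-GFP 20 again lay within the controls, and the log2 fold change of Plk1 was 1.59 (SE 0.50, adjusted p = 0.0315), a call lost in 8 of 21 alternative settings. Aurka, a kinase of the spindle poles, was at 0.432 to 0.965 CPM in CON-GFP (median 0.780) and 0.751 to 2.33 CPM in FPC-GFP (median 1.55), with a log2 change of 1.08 (SE 0.28, adjusted p = 0.0131). The other members were all above 0 and did not pass, with log2 fold changes of 1.10 for Cdk1, 1.01 for Aurkb, 0.91 for Ccna2 and 0.88 for Ccnb2 (adjusted p from 0.0585 to 0.138).

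In the spindle checkpoint and kinetochore group, 3 of 6 genes were DE. Cdc20 (ENSMUSG00000006398, chr4:118432901-118437352, minus strand), which activates the anaphase-promoting complex, had the largest log2 fold change of all members with the diet. It was at 0.0865 to 0.649 CPM in CON-GFP (median 0.467) and 0.200 to 3.99 CPM in FPC-GFP (median 2.14). In all, 5 FPC-GFP livers stood above every control at 1.99 CPM or more, and FPC-GFP 20 stood within the controls at 0.200 CPM, which is 4 counts. The log2 fold change was 2.38 (SE 0.51, adjusted p = 0.00466). Bub1b, a checkpoint kinase-like protein of the kinetochore, went from 0.383 to 0.828 CPM (median 0.505) to 0.373 to 2.25 CPM (median 1.51). For Bub1b it was FPC-GFP 11 that lay below the controls, and the log2 fold change was 1.40 (SE 0.36, adjusted p = 0.0128). Cenpe, a kinesin of the kinetochore, was at 0.0839 to 0.629 CPM in CON-GFP (median 0.180) and 0.300 to 1.02 CPM in FPC-GFP (median 0.750), and its log2 fold change of 1.36 (SE 0.45, adjusted p = 0.0404) lost its call in 11 of 21 alternative settings. Cenpf (1.71, SE 0.63, adjusted p = 0.0598) and Birc5 (0.66, SE 0.31, adjusted p = 0.129) did not pass. Bub1, a checkpoint kinase, had 0 to 4 counts in the CON-GFP libraries and 4 to 15 in the FPC-GFP libraries and was not tested.

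Of the spindle and chromosome genes, 4 of 7 were DE and 5 rose at any fold. Mki67 (ENSMUSG00000031004, chr7:135689784-135716361, minus strand), which encodes the proliferation marker Ki-67, was at 0.750 to 2.27 CPM in CON-GFP (median 2.00) and 3.00 to 7.52 CPM in FPC-GFP (median 6.05). Its groups did not overlap, with FPC-GFP 20 and 13 the lowest of the FPC-GFP livers. The log2 fold change of Mki67 was 1.67 (SE 0.28, adjusted p = 0.00122). Prc1, which bundles microtubules at the midzone, was at 0.144 to 0.997 CPM in CON-GFP (median 0.440) and 0.500 to 3.44 CPM in FPC-GFP (median 1.85). FPC-GFP 20 was within the controls for Prc1, and the log2 fold change was 1.94 (SE 0.45, adjusted p = 0.00757). Top2a, a topoisomerase that untangles chromosomes, was at 0.504 to 1.94 CPM in CON-GFP (median 1.02) and 1.10 to 3.87 CPM in FPC-GFP (median 3.49). The other 5 FPC-GFP livers lay between 3.42 and 3.87 CPM and FPC-GFP 20 at 1.10 CPM, and the log2 fold change was 1.45 (SE 0.33, adjusted p = 0.00616). Tpx2, a spindle assembly factor, went from 0.288 to 1.05 CPM (median 0.475) to 0.601 to 2.27 CPM (median 1.73), a log2 change of 1.50 (SE 0.36, adjusted p = 0.00908). Stmn1, which destabilises microtubules, rose by 0.54 on the log2 scale (adjusted p = 0.0305), a call lost in 8 of 22 alternative settings. Hmmr (1.43, adjusted p = 0.0566) and Kif11 (0.43, adjusted p = 0.197) did not pass.

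**Figure D3:**
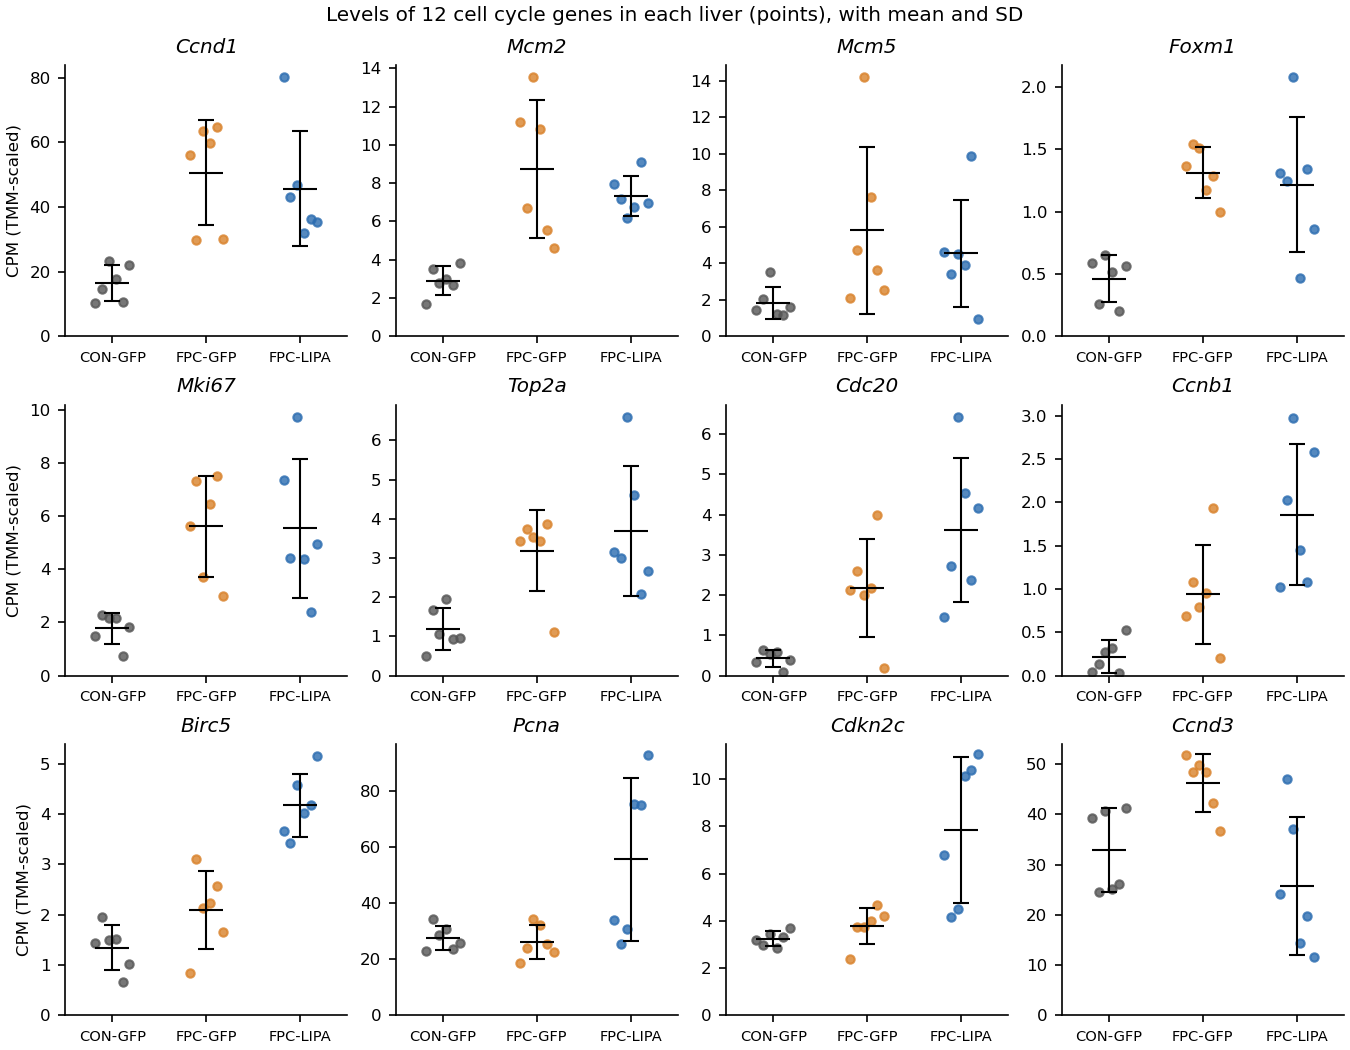
TMM-scaled CPM of 12 members in each liver (points), with the mean (wide bar) and SD (error bars) of each group of 6. Ccnd1, Mcm2, Foxm1 and Mki67 separate CON-GFP from FPC-GFP, Birc5 separates FPC-LIPA from both other groups, and Pcna and Cdkn2c split the FPC-LIPA livers.

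The FPC-GFP livers did not rank alike in all roles. FPC-GFP 13 had the highest licensing sum (23.3 RPKM) and a mitotic cyclin and kinase sum of 3.47 RPKM, whereas FPC-GFP 19 had the highest mitotic sum (6.43 RPKM) and a licensing sum of 11.6 RPKM. FPC-GFP 20, the library with the fewest counts of its group (17813507), had the lowest licensing sum (8.96 RPKM) and the lowest mitotic sum (1.61 RPKM), and the lowest level of its group in 26 of the 45 members. In FPC-LIPA the mitotic sum was highest in liver 34 (8.54 RPKM) and lowest in liver 39 (3.11 RPKM), the liver with the highest licensing sum of its group (14.5 RPKM). Among the controls, CON-GFP 7 had the lowest mitotic sum (0.659 RPKM) and the lowest level in 21 members. Without FPC-GFP 20, 22 members were DE with the diet, and 29 rose at any fold.

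**Figure D4:**
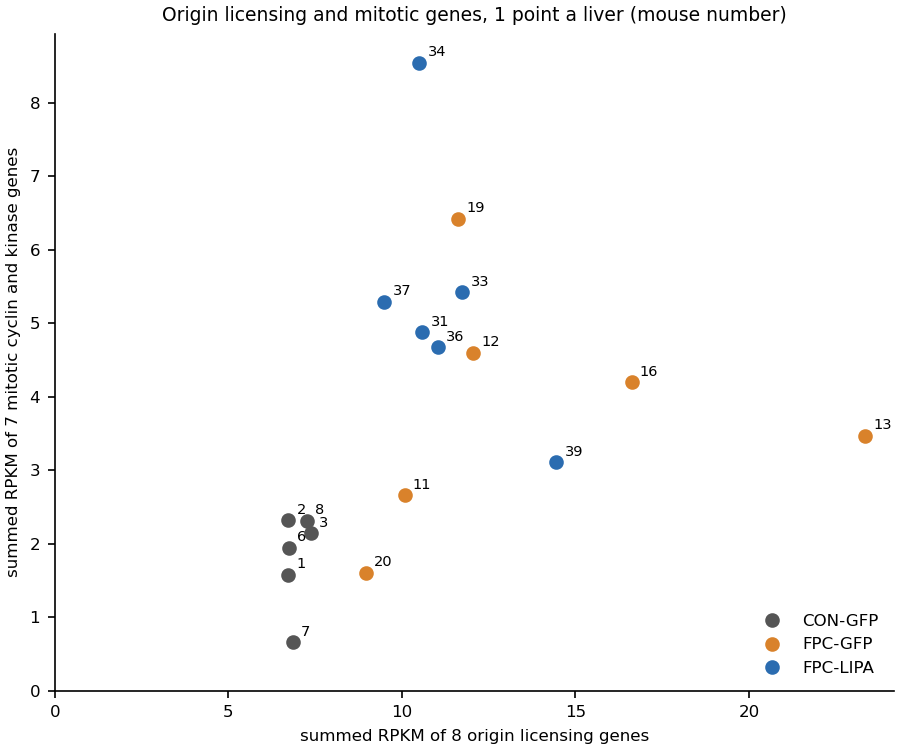
Summed RPKM of the 7 mitotic cyclin and kinase genes against that of the 8 origin licensing genes, 1 point a liver with its mouse number. The CON-GFP livers lie in a column between 6.72 and 7.38 RPKM of licensing RNA, FPC-GFP 13 lies far to the right (23.3 and 3.47 RPKM), and FPC-LIPA 34 (10.5 and 8.54 RPKM) and FPC-GFP 19 (11.6 and 6.43 RPKM) lie highest.

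Macrophage markers moved with the diet as well. All 8 Kupffer cell markers were DE and higher in FPC-GFP, and their sum went from 123 to 262 CPM in CON-GFP (median 185) to 357 to 639 CPM in FPC-GFP (median 414). Of 10 monocyte and macrophage markers 6 were DE and higher, with sums of 79.6 to 133 CPM (median 95.9) and 151 to 425 CPM (median 209). FPC-GFP 19, with the highest mitotic sum, had the highest sums of both lists (639 and 425 CPM), and FPC-GFP 20, with the lowest mitotic sum, the lowest (357 and 151 CPM). Not every liver ranked so. CON-GFP 2 had the highest mitotic sum of the controls (2.32 RPKM), with CON-GFP 8 close to it (2.31 RPKM). The Kupffer cell and monocyte and macrophage sums of CON-GFP 2 were the lowest (123 and 79.6 CPM). FPC-LIPA 39 had the lowest mitotic sum of its group (3.11 RPKM) with a monocyte and macrophage sum of 740 CPM, below that of liver 37 alone. Its Kupffer cell sum, however, was the lowest of its group (446 CPM). Enough counts to be tested were found for 6 of 10 T cell, 7 of 10 B cell, 1 of 7 NK cell, 4 of 5 plasma cell and 3 of 8 neutrophil markers. Among these, 0 genes were higher and 1 lower at an adjusted p under 0.05 in edgeR's quasi-likelihood test, and the untested markers could not be called. At an unadjusted p under 0.05, 2 were higher and 2 lower, and the DESeq2 Wald test called 1 higher and 2 lower. On average, 5 of 8 neutrophil markers were under 0.1 CPM in CON-GFP and 3 in FPC-GFP. The leukocyte marker Ptprc was at 4.20 to 10.1 CPM in CON-GFP (median 5.89) and 6.04 to 13.1 CPM in FPC-GFP (median 8.33), with a log2 fold change of 0.50 that did not pass. Of hepatocyte markers 2 of 7 were DE and lower. Of stellate cell markers 2 of 8 and of endothelial markers 1 of 7 were DE and higher, where 4.76% of all tested genes were. Of cholangiocyte and erythroid markers none was DE. The part of these cells in the cell cycle values was not tested.

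The second comparison asked what LAL overexpression changed on the FPC diet. Few members moved. In all, 3 of 45 (6.67%) were DE and higher in FPC-LIPA, where 10.3% of all 14620 tested genes were. At any fold 4 rose (8.89%, against 14.4% of all tested genes) and 1, Ccnd3, fell (2.22%, against 6.87%). These shares are below those over all tested genes. The median log2 fold change was 0.26 over the 45 members and 0.04 over all tested genes, and 29 members were above 0. Birc5 was the member with no overlap between its groups, or 2.22% of the members against 3.36% of all tested genes. No member was DE and lower, while Ccnd3 and Cdk6 were lower at an unadjusted p under 0.05 in edgeR's quasi-likelihood test, and the DESeq2 Wald test gave 0 DE lower as well.

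Birc5 (ENSMUSG00000017716, chr11:117849251-117855743, plus strand) encodes survivin, a part of the chromosomal passenger complex and an inhibitor of apoptosis. It was at 0.840 to 3.11 CPM in FPC-GFP (median 2.18) and 3.43 to 5.17 CPM in FPC-LIPA (median 4.11). Every FPC-LIPA liver was above every FPC-GFP liver, and above every CON-GFP liver too, where the range was 0.663 to 1.95 CPM. The log2 fold change was 1.06 (SE 0.27, adjusted p = 0.0214), and it stayed between 0.89 and 1.20 in the 23 alternative settings, of which 3 lost the call (adjusted p = 0.154 without FPC-LIPA 36, 37 and 39). Kif11, a motor protein that separates the spindle poles, was at 0.996 to 1.80 CPM in FPC-GFP (median 1.52) and 1.64 to 3.27 CPM in FPC-LIPA (median 2.37). It rose by 0.76 on the log2 scale (SE 0.25, adjusted p = 0.0437), with 5 FPC-LIPA livers above every FPC-GFP liver, and this call was lost in 16 of 23 alternative settings.

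Pcna and Cdkn2c were high in a subset of the FPC-LIPA livers. Pcna (ENSMUSG00000027342, chr2:132249162-132253314, minus strand) was at 33.8, 25.3 and 30.7 CPM in FPC-LIPA 31, 33 and 34, and at 75.6, 93.0 and 75.2 CPM in FPC-LIPA 36, 37 and 39. The former lie within the FPC-GFP range of 18.6 to 34.2 CPM and the latter are well above it. The log2 fold change of Pcna was 1.18 (SE 0.33, adjusted p = 0.027), and 0.21 (adjusted p = 0.572) without livers 36, 37 and 39, and its call was lost in 8 of 23 alternative settings. Cdkn2c (ENSMUSG00000028551, chr4:109660876-109667189, minus strand) was at 6.79, 4.17 and 4.49 CPM in FPC-LIPA 31, 33 and 34, at 10.2, 11.1 and 10.4 CPM in 36, 37 and 39, and at 2.40 to 4.66 CPM in FPC-GFP (median 3.87). Its log2 fold change was 1.12 (SE 0.29, adjusted p = 0.0206), with 4 FPC-LIPA livers above every FPC-GFP liver. Without livers 36, 37 and 39 it was 0.45 (adjusted p = 0.328), and the call was lost in 4 of 23 settings.

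Livers 36, 37 and 39 are those with the high ribosomal protein share. Several other members divided in the same way. Rrm1 was at 18.2, 18.4 and 18.4 CPM in them and at 9.75 to 10.6 CPM in livers 31, 33 and 34, Tyms at 14.3 to 22.1 and 9.95 to 11.9 CPM, and Cdkn1b at 20.2 to 51.7 and 12.7 to 16.3 CPM, with liver 37 the highest. The split ran the other way for Ccnd3, at 11.6 to 19.7 CPM in livers 36, 37 and 39 and 24.2 to 47.1 CPM in the others, and for Cdk6, at 11.1 to 12.4 and 18.6 to 25.2 CPM. Ccnd3 was at 36.7 to 51.9 CPM in FPC-GFP (median 48.4), fell by 0.81 on the log2 scale in FPC-LIPA (SE 0.28, adjusted p = 0.0495) and lost this call in 17 of 23 alternative settings. Birc5 and Mki67 overlapped between these livers, with Birc5 at 4.03 to 5.17 CPM in livers 36, 37 and 39 and 3.43 to 4.58 CPM in the others, and Mki67 at 2.38 to 4.95 and 4.43 to 9.74 CPM. Without livers 36, 37 and 39, 0 of the 45 members passed in either direction in edgeR's quasi-likelihood test, with 3 FPC-LIPA livers left, and 4 were higher (Birc5, Kif11, Ccnb1 and Cenpe) and 1 lower (Ccne1) at an unadjusted p under 0.05. Over all tested genes the share that was DE and higher was then 0.728%, from 10.3%. The part of the ribosomal protein share in these values was not tested.

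**Figure D5:**
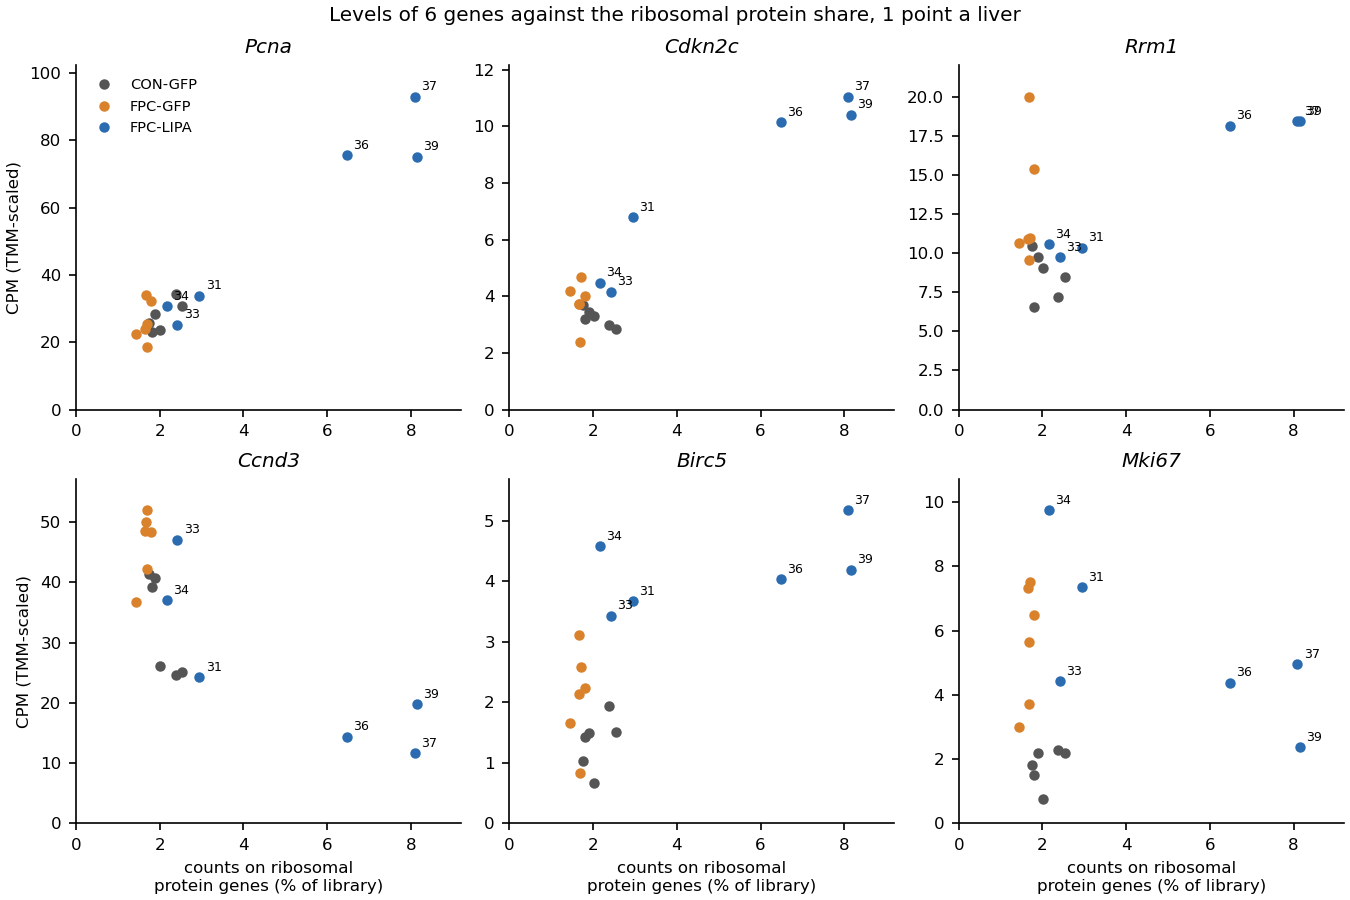
TMM-scaled CPM of 6 members against the percentage of counts on ribosomal protein genes, 1 point a liver, with mouse numbers for FPC-LIPA. Livers 36, 37 and 39 lie at 6.48% to 8.15% and are the highest of all 18 for Pcna and Cdkn2c and the lowest for Ccnd3, while Mki67 there is within the range of the other FPC livers or below it.

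No other member passed in this comparison. Among those with the largest differences, Bub1 had 4 to 15 counts in FPC-GFP and 9 to 53 in FPC-LIPA, with liver 37 alone at 3.80 CPM and the next at 0.861 CPM, and a log2 change of 1.73 (SE 0.64, adjusted p = 0.0616). Ccne2 was at 1.47 (SE 0.73, adjusted p = 0.143), with livers 37, 39 and 36 at 7.68, 6.35 and 2.87 CPM, and Ccnb1 at 1.02 (SE 0.43, adjusted p = 0.0893). Licensing genes had log2 fold changes from -0.31 to 0.63, and those of Foxm1, Ccnd1 and Mki67 were -0.06, -0.10 and 0.03 (adjusted p from 0.788 to 0.951). Leukocyte markers were high in the FPC-LIPA livers. Ptprc was DE (log2 fold change 1.67) and ranged from 13.9 to 69.2 CPM in FPC-LIPA (median 19.5), with liver 37 the highest. Of the monocyte and macrophage markers 6 of 10 were DE and higher, with sums of 474 to 907 CPM (median 597), and of the Kupffer cell markers 1 of 8, with sums of 446 to 978 CPM (median 722). Beside them, 3 of 10 B cell, 2 of 10 T cell, 2 of 7 NK cell, 2 of 8 neutrophil, 2 of 6 erythroid, 1 of 5 plasma cell and 1 of 8 stellate cell markers were DE and higher, where 10.3% of all tested genes were, and 1 of 7 hepatocyte markers was DE and lower. The erythroid and NK cell sums were highest in livers 36, 37 and 39, but not every marker of these lists was. Hbb-bs, Hbb-bt, Klrd1 and Gzma were higher in each of these livers than in livers 31, 33 and 34. Alas2 was lower in them, at 26.8 to 64.2 CPM against 89.8 to 102 CPM, and the other erythroid and NK cell markers overlapped. The erythroid sum was 1733 to 2559 CPM there and 528 to 947 CPM in livers 31, 33 and 34, and the NK cell sum 7.60 to 12.0 and 2.23 to 5.09 CPM. The B cell, T cell and neutrophil sums overlapped. The plasma cell sum was lower there, at 161 to 183 CPM against 313 to 358 CPM, and nearly all of it was Sdc1 and Xbp1. Sdc1 was at 75.5 to 93.6 CPM there against 137 to 180 CPM, and Xbp1 at 72.4 to 99.8 against 172 to 176 CPM. Of the other plasma cell markers, Igha was lower there (0.502 to 1.31 against 1.67 to 2.60 CPM) and Mzb1 was at most 0.359 CPM. Jchain overlapped and was highest in liver 37 (9.62 CPM). In CON-GFP too, Sdc1 was at 148 to 260 CPM and Xbp1 at 165 to 269 CPM. Jchain was at most 2.30 CPM and Mzb1 at most 0.307 CPM in those controls. The plasma cell sum thus follows Sdc1 and Xbp1 and cannot be read as an amount of plasma cells. Without livers 36, 37 and 39, none of the B cell, T cell, NK cell, neutrophil, plasma cell and stellate cell markers was DE in edgeR's quasi-likelihood test, with 9 B cell, 3 T cell, 1 NK cell, 2 neutrophil, 1 plasma cell and 2 stellate cell markers higher at an unadjusted p under 0.05, and 3 erythroid, 2 Kupffer cell and 1 monocyte and macrophage marker and Ptprc were DE and higher. The part of these cells in the member values was not tested.

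The third comparison set the FPC-LIPA livers against CON-GFP and so holds the diet and LAL overexpression together. It shares its FPC-LIPA libraries with the second comparison and its CON-GFP libraries with the first. Of the 45 members 26 were DE and higher (57.8%, against 11.8% of all 14433 tested genes), and 31 rose at any fold (68.9%, against 14.7%). None fell, where 8.20% of all tested genes did, while Cdkn1a and Cdk6 were lower at an unadjusted p under 0.05 in edgeR's quasi-likelihood test and the DESeq2 Wald test called 1 lower. The groups did not overlap for 14 members (31.1%, against 5.58% of all tested genes). The median log2 fold change was 1.29 over the 44 members tested and 0.04 over all tested genes. Without livers 36, 37 and 39, 23 members were DE and 28 rose at any fold.

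All 7 mitotic cyclins and kinases were DE, from 1.28 for Aurka to 3.07 for Ccnb1 on the log2 scale. Ccnb1 was at 1.02 to 2.98 CPM in FPC-LIPA (median 1.74), above every CON-GFP liver, and its log2 fold change had an SE of 0.55 and an adjusted p of 0.00149. Cdk1, the kinase of mitosis, was at 0.346 to 3.45 CPM in CON-GFP (median 2.05) and 4.09 to 8.30 CPM in FPC-LIPA (median 6.16). It did not overlap, and its log2 fold change was 1.66 (SE 0.39, adjusted p = 0.0079). Aurkb, the kinase of the chromosomal passenger complex, Ccna2 and Ccnb2 rose by 1.67, 1.42 and 1.34 on the log2 scale (adjusted p = 0.0105, 0.0196 and 0.0186), and Plk1 by 1.98 (adjusted p = 0.0269). All 5 tested genes of the checkpoint and kinetochore group were DE. Cdc20 was at 1.47 to 6.41 CPM in FPC-LIPA (median 3.44) with no overlap and a log2 change of 3.12 (SE 0.45, adjusted p = 0.000348). Bub1b (1.76), Birc5 (1.68), Cenpe (1.75) and Cenpf (2.02) followed (adjusted p from 0.000594 to 0.0457).

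Of the spindle and chromosome genes 6 of 7 were DE, and Stmn1 rose by 0.93 on the log2 scale (adjusted p = 0.00478). Prc1 was at 1.62 to 4.65 CPM in FPC-LIPA (median 2.36), with a log2 change of 2.56 (SE 0.42, adjusted p = 0.000777). Mki67 was at 2.38 to 9.74 CPM (median 4.69), just above the highest control of 2.27 CPM, with a log2 change of 1.67 (SE 0.34, adjusted p = 0.00336). Top2a, Tpx2, Hmmr and Kif11 were at 1.68, 1.70, 1.52 and 1.16 (adjusted p from 0.00427 to 0.0422). The call of Hmmr was lost in 12 of 22 alternative settings and that of Cenpf in 11 of 22. Among earlier steps of the cycle, Ccnd1 (1.50), Foxm1 (1.42), Mcm2 (1.37), Mcm5 (1.36), Mcm6 (1.02) and Cdc6 (1.93) were DE, and Mcm3 (0.92) and Mcm4 (0.81) rose by less than 2-fold. Pcna (1.05), Rrm1 (0.78), Tyms (0.72), Mcm6 and Cdc6 passed with all 6 FPC-LIPA livers but not without livers 36, 37 and 39. Cdkn2c was at 2.85 to 3.68 CPM in CON-GFP (median 3.25) and at 4.17 CPM or more in every FPC-LIPA liver, with a log2 change of 1.31 (SE 0.27, adjusted p = 0.00332). The other 13 tested members did not pass, with log2 fold changes from -1.54 for Cdkn1a to 1.03 for Ccne1 (adjusted p from 0.0555 to 0.885). Beside these values, 8 of 8 Kupffer cell markers and 9 of 10 monocyte and macrophage markers were DE and higher, where 11.8% of all tested genes were. The part of these cells was not tested.

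The other genes of these pathways were read from 10 lists of 190 genes in all. Their counts with the diet stand beside 4.76% of all tested genes that were DE and higher, and nucleotide synthesis, p53 targets and growth signals lay near that share. Of 39 further kinetochore and spindle assembly genes, 10 were DE and higher with the diet and 13 rose at any fold, led by Pbk, a mitotic kinase (log2 fold change 1.99, SE 0.34, adjusted p = 0.00122), Sgo2a, which guards centromeric cohesion (1.85, adjusted p = 0.00219), and Ube2c, the ubiquitin-conjugating enzyme of the anaphase-promoting complex (1.80, adjusted p = 0.00252). The 1 DE gene on the lower side was Cenpm, a constitutive centromere protein, with a mean of 2.06 ± 0.338 CPM (SD, n = 6) in the controls against 0.531 ± 0.192 CPM in FPC-GFP, a log2 change of -1.93 (SE 0.25, adjusted p = 0.000241) with no overlap. In FPC-LIPA against CON-GFP 19 of these 39 genes were DE and higher, where 11.8% of all tested genes were, and Cenpm was again lower (-1.51, adjusted p = 0.00322). Of 37 replication genes, 4 were DE and higher with the diet and 7 rose at any fold, with Pold1, the catalytic subunit of DNA polymerase delta, at 1.36 (adjusted p = 0.000659) and Lig1, DNA ligase 1, at 1.34 (adjusted p = 0.00122). Of 11 genes of cytokinesis and polyploidy 3 were DE and higher, namely Kif23 (1.50), Kif20b (1.31) and Racgap1 (1.26).

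G2/M control genes gave 4 DE higher of 12 with the diet, among them Pkmyt1, an inhibitory kinase of CDK1 (log2 fold change 1.94, SE 0.27, adjusted p = 0.000349), Chek1 (1.45) and Cdc25b (1.16). In the RB, E2F and DREAM list 2 of 17 were DE and higher, Mybl1 (1.76) and E2f2 (1.13). At any fold 5 rose, among them Lin37 of the DREAM complex (0.73), and 1 fell, Tfdp2, a partner of E2F factors (-0.53, adjusted p = 0.0333). Condensin and cohesin gave 2 of 13, Ncapg (1.99) and Ncaph (1.36), and 4 rose at any fold. Nucleotide synthesis gave 1 of 18, Impdh1 (1.17), the 1 gene that rose at any fold, with 2 that fell by less than 2-fold, Paics and Dctpp1 (-0.37 and -0.65), and the other CDK inhibitors 0 of 5, of which 2 were tested. In the p53 target list Pmaip1 was DE and higher (1.05) and Trp53inp1 DE and lower (-1.34), and Zmat3 (0.62) and Ei24 (-0.54) passed with less than 2-fold. Among hepatocyte growth signals 1 of 18 was DE and higher, Fos (2.16). Below 2-fold, Tgfa rose (0.40), and Met, Egf and Igfbp1 fell (-0.53, -0.87 and -0.98).

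With LAL overexpression, no list held more than 3 DE genes, which were on the higher side but for Egfr. In every list but the other CDK inhibitors, with 1 of 5, the DE genes on the higher side were a smaller share than the 10.3% of all tested genes. The largest were Rpa3 (2.02), a subunit of the single-strand DNA binding protein, Cdkn3 (1.92), a phosphatase of CDKs, Dctpp1 (1.81) and Pbk (1.72), all DE and higher (adjusted p from 0.011 to 0.0432). The FPC-LIPA livers varied widely for Rpa3, at 21.1 ± 15.5 CPM, and Dctpp1, at 80.8 ± 62.9 CPM (SD, n = 6), and both overlapped FPC-GFP. Without livers 36, 37 and 39 their log2 fold changes were 0.48 and 0.28 and that of Cdkn3 was 1.15 (adjusted p from 0.337 to 0.426), while Pbk stayed DE at 1.39 (adjusted p = 0.0478). Of the other genes named here for this comparison, none passed without these livers. Cep55, a protein of abscission (1.45, adjusted p = 0.0195), had no overlap between FPC-LIPA and FPC-GFP. Nor had Pbk, Cenpa (0.70) and Ddit4l (1.36), all higher in FPC-LIPA. Smc1a, Bub3, Gart, Yap1 and Erbb3 had no overlap on the lower side. Over all tested genes, 3.36% were higher with no overlap. Ccn2, a target of YAP1, was DE and higher (1.67, adjusted p = 0.0136), while Yap1 and Erbb3 fell by 0.76 and 0.64 on the log2 scale. Egfr, the receptor of epidermal growth factor, was at 360 ± 113 CPM in CON-GFP, 167 ± 124 CPM in FPC-GFP and 58.6 ± 20.1 CPM in FPC-LIPA (SD, n = 6). With the diet alone, Egfr was not among the growth signal genes that fell at an adjusted p under 0.05. Its log2 fold change was -1.48 in FPC-LIPA against FPC-GFP (SE 0.42, adjusted p = 0.0282) and -2.59 in FPC-LIPA against CON-GFP (SE 0.27, adjusted p = 3.52e-05), with no overlap in the latter. Areg, a ligand of that receptor, had a mean of 0.0288 ± 0.0256 CPM (SD, n = 6) in the controls and of 0.539 ± 0.108 CPM in FPC-LIPA. Its log2 change in FPC-LIPA against CON-GFP, which holds the diet and LAL overexpression together, was 3.93 (SE 0.50, adjusted p = 0.000142) at low counts. Areg was not among the growth signal genes that rose at an adjusted p under 0.05 with the diet alone or in FPC-LIPA against FPC-GFP.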

How the data were processed

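Liver RNA of 18 mice, 6 in each of CON-GFP, FPC-GFP and FPC-LIPA, was sequenced, and the labels gave each library its group. The deposited raw read counts were made by the authors with Trimmomatic, HISAT2 2.1.0 (GRCm38, mm10) and featureCounts of Subread. The table holds 5 other columns of counts, which were not used here. The 45 members were matched by symbol. The members and the pathway and marker lists were chosen with earlier results of these data known. Counts were tested on all genes with edgeR 4.0.16 (R 4.3.3), using filterByExpr, TMM factors, the quasi-likelihood F test and Benjamini-Hochberg adjustment over all genes tested, in 3 comparisons of 12 libraries each. SE is the log2 fold change over the square root of F. RPKM used union exon lengths of the annotation. Named pathway genes were at most 3 on each side, by size of log2 fold change, among those with an adjusted p under 0.05. On simulated counts for FPC-GFP against CON-GFP, 190 of 200 genes changed by 2 on the log2 scale were recovered over 14307 genes. The same simulation recovered 181 for FPC-LIPA against FPC-GFP and 176 for FPC-LIPA against CON-GFP. Of the unchanged genes, 7, 9 and 12 were called, in the same order. Smaller changes were not simulated. Alternatives were other scalings, filters, DESeq2 1.42.0, libraries left out, and removal of length and GC trends. No 2 libraries of a group agreed within sampling noise. P-values measure the spread between the mice.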

Additional observations from a re-analysis of the deposited data

Results flagged for a closer look

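In each group of 6 livers, the highest and the lowest CPM of every member were compared with the nearest of the others by Dixon's ratio. Of 135 groups of values 13 held such a liver, and chance gives about 1 in 20. In FPC-LIPA 37, the library with the fewest counts and the highest Ptprc level, Cdk4 was at 19.5 CPM (next 38.8), Mcm3 at 3.45 (next 6.47) and Mcm7 at 8.83 (next 11.7), below the rest of the group, while Cdkn1b was at 51.7 CPM (next 21.3) and Bub1 at 3.80 (next 0.861), above it. In the other FPC-LIPA livers, Ccnd1 stood at 80.4 CPM in liver 31 (next 46.7) and Aurkb at 2.40 CPM in liver 34 (next 1.18). Among the controls, Cdkn1a stood at 312 CPM in CON-GFP 1 (next 95.7), Ccne2 at 5.45 CPM in CON-GFP 2 (next 1.51), and both E2f1 and Mcm5 were high in CON-GFP 3, at 6.33 CPM (next 4.04) and 3.49 CPM (next 2.01). In FPC-GFP, Rrm2 was at 13.7 CPM in liver 11 (next 6.75) and Top2a at 1.10 CPM in liver 20 (next 3.42).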

How the results depend on the processing

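No paired analysis was possible because no mouse number is shared between groups. With the diet, the 18 DE members became 10 with at least 1 CPM in 6 libraries, where fewer genes were tested, and 10 at an adjusted p under 0.01, and 15 to 22 with 1 library left out. The 0 lower members became 1, Cdkn1a, without FPC-GFP 11 (range 0 to 1, DE or at any fold). With LAL overexpression, the 3 DE higher members became 0 with library size alone, 0 with sample sheet numbers 55 to 68, 0 without FPC-LIPA 36, 37 and 39, 0 at an adjusted p under 0.01 and 5 in the DESeq2 Wald test, and 0 to 6 with 1 library left out (0 without FPC-LIPA 37, 1 without FPC-LIPA 36, FPC-LIPA 39 or FPC-GFP 11, and 6 without FPC-LIPA 33). The 4 passing higher became 2 with library size alone, 8 in DESeq2, 7 with all 18 libraries, 0 with sheet numbers 55 to 68, 0 without FPC-LIPA 36, 37 and 39, and 1 to 8 with 1 library left out. DE lower went from 0 to 1 with no fold minimum and was 0 to 1 with 1 left out (1, Ccnd3, without FPC-LIPA 33). Passing lower went from 1 to 0 with upper-quartile factors, library size alone, no filter, at least 1 CPM, sheet numbers 55 to 68, the length trend removed, or without FPC-LIPA 36, 37 and 39, to 2 with DESeq2, all 18 libraries or the GC trend removed, and was 0 to 2 with 1 left out. In FPC-LIPA against CON-GFP, 26 DE higher became 16 with at least 1 CPM, 17 with sheet numbers 55 to 68, 13 at an adjusted p under 0.01, and 19 to 25 with 1 left out. DE lower was 0 to 1 with 1 left out (Cdkn1a without FPC-LIPA 33), passing higher went from 31 to 20 with sheet numbers 55 to 68, and passing lower from 0 to 1 with DESeq2 size factors, DESeq2 and all 18 libraries, and was 0 to 2 with 1 left out. The cause of these moves was not tested beyond the smaller number of genes or libraries.

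No called member changed direction in any setting run. With the diet 458 of 520 values kept their call, in FPC-LIPA against CON-GFP 635 of 703, and with LAL overexpression 67 of 115. Library size alone shifted the median over all tested genes, on the log2 scale, by 0.196 with the diet and by -0.132 with LAL overexpression. Many mitotic members had under 20 counts in control libraries, so that their folds are imprecise, and a gene with few counts could not be tested.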
